A study of Macaca mulatta with 24 samples.

Results

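The comparison described here is the main effect of a western-style diet (WSD) on DNA methylation in omental white adipose tissue (WAT), the visceral fat of the abdomen, in female rhesus macaques. It used all 24 animals of the series, 12 fed WSD and 12 fed chow, and all 841143 CpG positions measured. The 12 and 12 animals were set apart by diet alone. On chow, the 6 C animals carried implants of cholesterol, the control implant, and the 6 T animals carried implants releasing testosterone. On WSD, a diet high in fat, the 6 WSD animals carried cholesterol and the 6 T+WSD animals carried testosterone. Thus every animal had an implant, treatment had lasted 3 years in all groups, and all animals were labelled as females of 4 years of age. The study's methods give a higher age at biopsy. Each library came from 1 animal. According to the study's methods, the animals were picked as representative of their groups for fat mass and insulin, so they are not a random draw from them.

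The diet effect was defined as the average of the difference WSD minus C and the difference T+WSD minus T. The animal numbers in the labels run from 1 to 12 over C and T+WSD and from 13 to 24 over T and WSD. What this number marks is not given in the sources used here. The diet effect is balanced over it. The difference between the diet effects under testosterone and under cholesterol, in contrast, is the same contrast as animals 1 to 12 against animals 13 to 24, so a dependence of the diet effect on the implant and a difference between the number series cannot be told apart.

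DNA methylation is the attachment of a methyl group to cytosine, which in mammals takes place mostly at CpG dinucleotides. CpG-dense promoters are usually unmethylated, most other CpGs are highly methylated, and intermediate levels are found at regulatory elements, at imprinted loci and where cells of a tissue differ from each other. In reduced-representation bisulfite sequencing (RRBS), DNA is cut by MspI at CCGG, so the measured CpGs lie mainly in CpG-rich sequence. White adipose tissue stores fat in adipocytes and also holds endothelial, mesothelial, immune and progenitor cells. In biopsies of whole tissue, a change in the share of a cell type and a change of methylation within cells cannot be told apart. Positions are given on the rheMac8 build. No annotation of this build was used here, so regions are named by position and not by gene, and markers of cell types were not examined.

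T 16 stood apart from the other libraries. A value was missing at 1.72% to 8.73% of CpGs in the other 23 animals and at 14.7% in T 16, whose median correlation with the other animals was 0.933 against 0.947 to 0.960 in the rest. Read numbers per CpG and the sequencing statistics of the libraries were not analysed here. The depth behind a value is thus unknown beyond the authors' minimum of 10 reads, and no counting interval is given.

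Mean methylation showed no diet difference that passed the test. Over the 475736 autosomal and X-linked CpGs with a value in every animal, it was 45.4% ± 0.474 (SD, n = 12 animals) on chow and 45.2% ± 0.596 (SD, n = 12) on WSD. The chow animals lay between 44.4% and 46.3% with a median of 45.4%, and the WSD-fed animals lay between 44.2% and 46.0% with a median of 45.3%. The diets therefore overlapped over nearly their whole range. The diet effect was -0.154 percentage points (two-sided exact permutation test over all 853776 assignments of diet within implant, p = 0.464). It was -0.251 points under cholesterol and -0.0567 points under testosterone. By number series the signs were opposite, -0.604 points among animals 1 to 12 and 0.296 points among animals 13 to 24. None of the 21 chromosomes passed either, with effects from -0.351 points on chromosome 12 (exact permutation p = 0.0578, adjusted p = 0.743) to 0.0104 points on chromosome 19.

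When CpGs were split by their mean level over all animals, the diet effects were small and positive at low levels and negative at high levels. The effect was 0.184 points for CpGs under 10% and 0.572 points for CpGs at 10 to 30%. In the class under 10%, T+WSD 8 (2.54%), WSD 20 (2.46%) and T 13 (2.25%) had higher means than the other 21 animals (1.501% to 1.98%). Without these 3, left out after seeing the data, the effect there was 0.115 points (exact permutation p = 0.0505, adjusted p = 0.0841). For CpGs at 30 to 70% the diet effect was -0.518 points. At 70 to 90%, where the chow animals averaged 82.5% ± 0.982 and the WSD-fed animals 81.7% ± 1.02 (SD, n = 12 each), the effect was -0.845 points (exact permutation p = 0.0125, adjusted over 5 classes p = 0.0625). Above 90% it was -0.228 points (exact permutation p = 0.0513, adjusted p = 0.128). None of the 5 classes passed the threshold of 0.05 after adjustment. The effect at 70 to 90% was -0.929 points under cholesterol and -0.760 points under testosterone. By number series it was -2.05 points among animals 1 to 12 and 0.365 points among animals 13 to 24, so it had opposite signs there.

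**Figure D1:**
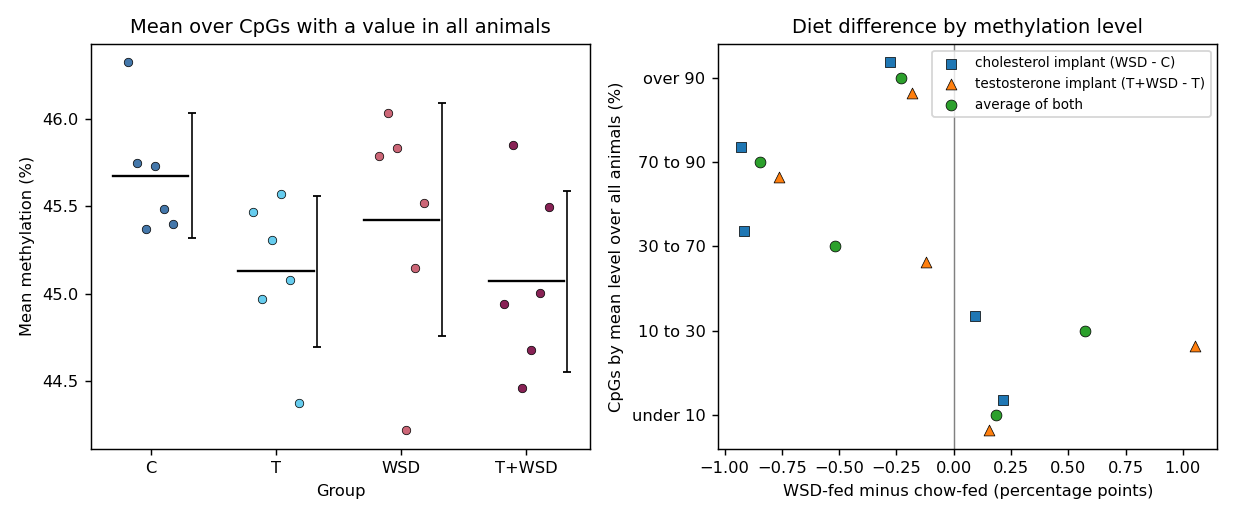
Left, mean methylation (percent) of each animal by group, with the group mean (line) and SD (bar, n = 6 animals); the vertical axis does not start at 0. Right, the diet difference in percentage points for 5 classes of CpGs by mean level, under cholesterol (squares), under testosterone (triangles) and averaged (circles): the averages run from 0.572 points at 10 to 30% to -0.845 points at 70 to 90%.

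The profile as a whole did differ by diet. Over the 487852 CpGs with a value in every animal, diet took up 5.21% of the variation between animals, with a pseudo-F (variation between diets over variation within groups) of 1.22 (exact permutation within implants, p = 1.08e-04). Any split of the animals takes up some share, so the 5.21% is not the size of a diet effect. Without T 16 the pseudo-F was 1.21 (exact permutation p = 2.34e-04), and without C 1, the chow animal farthest from the WSD-fed animals on average over the regions described below, it was 1.16 (exact permutation p = 5.39e-04). Over the 10000 most variable CpGs the pseudo-F was 0.978, with 4.22% of the variation, and did not pass (exact permutation p = 0.574). Along the second principal component, which held 6.56% of the variance, the WSD-fed animals scored 22.2 units higher than the chow animals (exact permutation p = 0.00159, adjusted over 6 components p = 0.00956). Chow animals spanned -43.2 to 16.7 and WSD-fed animals spanned -15.4 to 62.7 on it, so the diets overlapped, and WSD 20 lay farthest out. Without WSD 20 the difference was 16.6 units (exact permutation p = 0.00306). The first component set T 16 apart, at 124 units against at most -2.56 in the WSD-fed animals. Its diet difference was -13.2 units (exact permutation p = 0.00954, adjusted p = 0.0286), and -2.40 units without T 16 (exact permutation p = 0.0179).

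Single CpGs were tested with limma. An unadjusted p under 0.05 was found at 59487 CpGs, which is 7.07% of all CpGs tested, with 27297 higher and 32190 lower on WSD. The share was unequal among methylation levels. It was 4.00% of CpGs with a mean level under 10%, 13.4% at 30 to 70% and 5.92% above 90%. Below 10% most of these CpGs were higher on WSD, 7562 against 3911 lower, and without T 13, WSD 20 and T+WSD 8 it was 7337 against 3763. At 70 to 90% most were lower, 9506 against 4105 higher.

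A differentially methylated CpG (DMC) needed an adjusted p under 0.05 (limma, Benjamini-Hochberg) and a difference over 10 points. There were 3 DMCs, 0.000357% of CpGs, and all were higher on WSD. At each of them the lowest WSD-fed animal lay above the highest chow animal.

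The DMC at position 76908625 of chromosome 6 showed the largest gain. Chow animals had 15.5% to 29.9% with a median of 25.2%, and WSD-fed animals had 31.1% to 80.5% with a median of 52.1%. The difference was 28.3 points (limma adjusted p = 0.0227), with 23.4 points under cholesterol and 33.3 points under testosterone. Among animals 1 to 12 it was 37.4 points, and among animals 13 to 24 it was 19.2 points. All 3 other CpGs measured within 100 bp were also higher on WSD, with a median difference of 25.5 points.

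At position 69597891 of chromosome 10, chow animals had 20.8% to 43.6% with a median of 34.9%. WSD-fed animals had 47.6% to 68.6% with a median of 57.4%. The gain of 25.5 points (limma adjusted p = 0.0217) was nearly equal under both implants, 25.8 points under cholesterol and 25.2 points under testosterone, and in both number series, 25.8 and 25.2 points.

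The third DMC lies at position 24426683 of chromosome 13. Its chow values ran from 34.5% to 55.6% with a median of 48.7%, and its WSD values from 59.1% to 81.0% with a median of 64.7% in the 11 animals with a value. The difference was 18.99 points (limma adjusted p = 0.0214). It was 23.03 points under cholesterol and 14.96 points under testosterone. Among animals 1 to 12 it was 25.1 points, and among animals 13 to 24 it was 12.9 points. All 4 CpGs within 100 bp were higher on WSD, by a median of 11.1 points.

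These 3 calls depended on single animals, and the count moved by more than 1.5 times without 11 of the 24. Without C 1, or without T 15, no CpG passed both thresholds, and without WSD 23, or without T+WSD 11, 13 did. Their direction was then no longer uniform, with 11 higher and 2 lower on WSD without WSD 23, and 6 higher and 7 lower without T+WSD 11. Without T 16 there were 8 DMCs, 6 higher and 2 lower. Regardless of significance, the values of the diets did not overlap at 7 CpGs, 0.000832% of those tested, 5 higher and 2 lower on WSD, and 2 of these lacked a value in 6 or more animals. Among them position 166638664 of chromosome 7 passed the test with a small loss. Chow animals had 96.6% to 100% there and WSD-fed animals 79.3% to 96.3%, a diet effect of -8.06 points (limma adjusted p = 0.0217).

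Differentially methylated regions (DMRs) were runs of neighbouring CpGs whose combined p-values passed the comb-p procedure with a Sidak p under 0.1 and a mean difference over 10 points. The Sidak p combines CpGs measured in the same animals and is not a test over animals. Diet gave 371 DMRs, which held 2726 CpGs or 0.324% of CpGs tested. Methylation was higher on WSD in 189 (gains) and lower in 182 (losses), so neither direction prevailed. A DMR spanned a median of 175 bp and 6 CpGs, at most 1020 bp and 48 CpGs, and 72 held 10 or more CpGs. In 357 of 371 all CpGs differed in the same direction. The size of a DMR is its mean difference over CpGs, each from the fit. Values by implant, by number series and per animal come from region means per animal, and where values are missing they need not average to it. The mean over animals was more than 1 point away from the mean over CpGs in 32 of the 371, by at most 3.16 points. Sizes were moderate, with a median of 13.1 points in either direction. The difference exceeded 15 points in 103 DMRs, 20 points in 26 and 25 points in 5. The count was 235 when only CpGs with a mean level of 5 to 95% entered, and 184 when the Sidak correction used the bases spanned by measured CpGs, an alternative chosen after seeing the data. It ranged from 269 without C 1 to 451 without C 2, and was 385 without T 16.

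Most diet DMRs were partly methylated on chow. The chow animals averaged between 20% and 80% in 340 of the 371, under 20% in 18 and over 80% in 13. Of the CpGs inside DMRs, 83.9% lay between 20% and 80% on chow, whereas of all CpGs measured 21.5% did. A difference over 10 points is out of reach where all animals are near 0% or near 100%, so the threshold itself favours partly methylated CpGs. In contrast, local CpG density was alike by CpG, with a median of 9 measured CpGs within 500 bp for DMR CpGs and for all CpGs. With each DMR counted once, the median was 6, with 7 for gains and 6 for losses. No DMR contained a CpG with stepwise values like those of a genotype, whereas 0.617% of all CpGs had such values. This difference was not tested.

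Losses started higher and ended lower than gains. The median DMR with a gain averaged 35.2% in C and 37.5% in T, against 47.7% in WSD and 55.4% in T+WSD. The median DMR with a loss averaged 59.0% in C and 52.5% in T against 45.5% in WSD and 41.8% in T+WSD. Averaged over all gain regions per animal, C animals ranged from 25.2% to 43.5% and T animals from 38.6% to 40.9%. WSD animals ranged from 42.8% to 56.2% and T+WSD animals from 49.8% to 63.1%. The 6 T animals were tightly grouped and the 6 C animals were spread widely, with C 1 lowest. Over the loss regions C animals ranged from 54.9% to 66.2%, again with C 1 at the extreme, and T animals from 51.8% to 56.0%. WSD animals ranged from 40.1% to 50.1% and T+WSD animals from 36.3% to 45.0%. These averages describe regions that were picked for their diet difference in the same animals and carry no test.

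**Figure D2:**
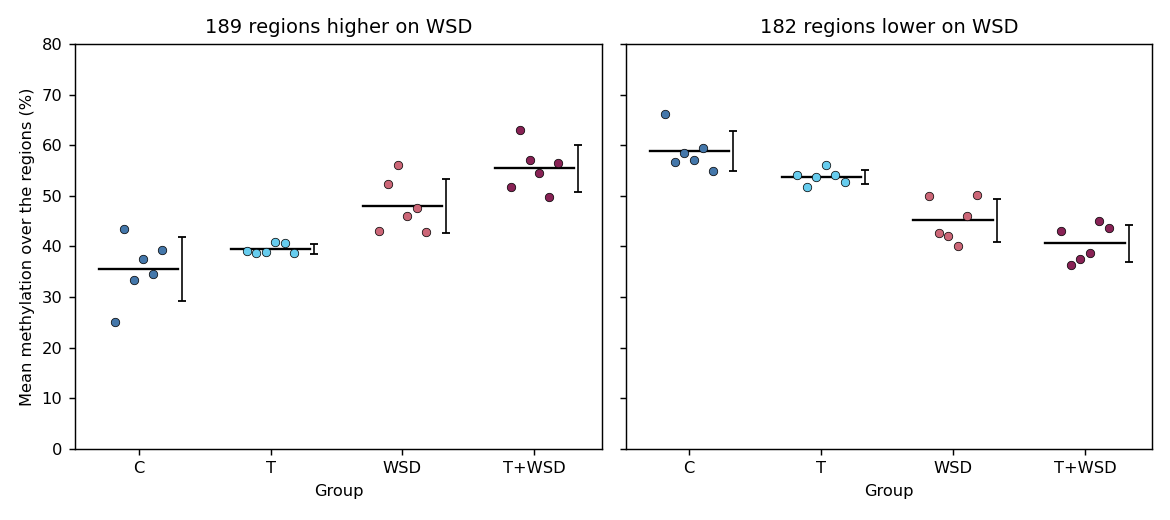
Mean methylation (percent) of each animal over the 189 diet DMRs that were higher on WSD (left) and the 182 that were lower (right), by group, with the group mean (line) and SD (bar, n = 6 animals). Regions were picked in these animals; C animals spread from 25.2% to 43.5% over the gains, and T animals from 38.6% to 40.9%.

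Separation of the diets within a DMR was partial. In 350 of 371 DMRs at least 10 WSD-fed animals lay past the median of the chow animals in the direction of the DMR, and in 130 all 12 did. The diets did not overlap at all in 1 DMR. These regions were picked for their diet difference in the same animals, so high counts follow in part from the selection. Over all features, the diets did not overlap at 0.000832% of CpGs and in 0.00297% of tiles. A share of features with animals past the chow median was not counted over all CpGs or tiles. The 16 regions named below are the 8 largest gains and 8 largest losses, ranked by the mean difference over animals. They were taken from DMRs with at least 3 CpGs, values in at least 22 animals and more than 5 points in the same direction under both implants. Among these 16, 10 were called again whichever animal was left out. Under the 17 other settings tried, 6 of the 16 were called each time, and the fewest were 13 of 17, for the named regions of chromosome 11 and of chr16:1030062-1030247.

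The named gains lay between 20.8 and 24.9 points. Their mean on chow ran from 27.4% to 57.8% and on WSD from 50.7% to 78.8%. The region that carried a DMC, chr6:76908592-76908649, had the smallest Sidak p of them, 6.44e-09. Its 4 CpGs averaged 15.9% to 39.3% on chow with a median of 28.0%, and 34.4% to 82.7% on WSD with a median of 49.5%. The difference was 24.3 points, and it was 19.2 points under cholesterol and 29.3 points under testosterone. The diets overlapped only between 34.4% and 39.3%.

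The gain at chr7:79488777-79488830 was alike under both implants, at 20.02 points under cholesterol and 21.5 points under testosterone. Chow animals had 18.2% to 51.6% with a median of 37.4%, and WSD-fed animals had 43.8% to 73.7% with a median of 62.8% (Sidak-adjusted p = 4.44e-05). Every WSD-fed animal was above the chow median. By number series, however, it was uneven, with 34.2 points among animals 1 to 12 and 7.32 points among animals 13 to 24. This gap comes by construction from the implant difference, which was 13.5 points in this region.

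At chr6:63263952-63264025, on the same chromosome as the first region but far from it, the gain was 21.5 points (Sidak-adjusted p = 3.44e-05). Chow animals had 13.2% to 60.6% with a median of 31.3%, and WSD-fed animals had 28.4% to 66.8% with a median of 51.4%. One C animal lay far above the other chow animals here. At chr19:44713022-44713075 methylation was already 57.8% ± 17.7 (SD, n = 12) on chow and reached 78.8% ± 14.2 on WSD (Sidak-adjusted p = 0.0102). There the gain was 11.998 points under cholesterol and 30.02 points under testosterone, a difference that did not pass the interaction test (smallest adjusted p of its CpGs 0.914, limma).

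The other 4 named gains were lost when certain animals were left out. The gain at chr11:25441691-25441765, the largest of the named gains at 24.9 points, was called in 13 of 24 such fits, and its Sidak p was 0.0613. It was lost without any of C 4, C 5, C 6, T 13, T 14, T 16, WSD 20, WSD 21, WSD 24, T+WSD 10 and T+WSD 12. Next, chr16:1433066-1433137 gained 24.05 points and was called in 18 of 24, and was lost without C 3, T 14, T 16, T 18, WSD 21 or WSD 23. The region chr14:46601833-46601893 gained 21.3 points and was lost without T 16 or WSD 19. Least stable was chr18:48304765-48304820, with 20.96 points and 12 of 24. It was lost without any of C 1, C 3, C 6, T 13, T 18, WSD 20, WSD 21, WSD 22, T+WSD 7, T+WSD 8, T+WSD 9 and T+WSD 10.

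The named losses had diet effects from -26.5 to -18.99 points. Their chow means ran from 48.0% to 69.7% and their WSD means from 22.5% to 49.2%. At chr17:14993388-14993457 the diet effect of -26.5 points was the largest of all DMRs in size (Sidak-adjusted p = 4.62e-05). Chow animals had 24.5% to 72.0% with a median of 52.4%, and WSD-fed animals had 9.26% to 44.0% with a median of 19.6%. All 12 WSD-fed animals were below the chow median. A second, broader DMR lies just before it, chr17:14992240-14992872, with 19 CpGs and a diet effect of -12.9 points (Sidak-adjusted p = 3.14e-09), a region named after its values were seen. When gaps of up to 1000 bp were bridged, the region of the largest loss became part of a longer DMR with a diet effect of -14.8 points. In the broader region chow animals averaged 25.7% ± 8.44 and WSD-fed animals 12.9% ± 8.54 (SD, n = 12 each).

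At chr14:4404627-4404682 the effect was -24.1 points (Sidak-adjusted p = 1.39e-05). Chow values ran from 54.9% to 85.7% with a median of 70.6% in 10 animals, and WSD values from 24.2% to 65.8% with a median of 46.5% in 12. Both implants gave a similar size here, -23.7 points under cholesterol and -24.5 points under testosterone. The loss at chr3:57838568-57838620 was -23.5 points (Sidak-adjusted p = 1.16e-05). Its chow animals had 47.7% to 83.3% with a median of 66.7%, and its WSD-fed animals had 32.4% to 61.0% with a median of 42.9%. WSD 24 had the highest value of the WSD-fed animals in it, well above the other 5 of its group.

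The region chr1:16878704-16878911 was the only DMR in which the 12 and 12 animals did not overlap. Its 3 CpGs averaged 55.6% to 68.1% on chow with a median of 62.3%. On WSD they averaged 31.3% to 54.9% with a median of 43.2%. The diet effect was -18.99 points (Sidak-adjusted p = 1.87e-05), with -21.6 points under cholesterol and -16.1 points under testosterone, and -22.6 and -15.1 points in the number series. It was not called when only gaps of up to 100 bp were bridged or when only CpGs with a value in all animals were used. The chow animals were uniform here, with an SD of 4.12 points against 7.30 on WSD.

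The losses at chr13:92615958-92616093 and chr9:128608269-128608442 held 7 and 6 CpGs and were also called without any single animal. The former was -20.3 points over CpGs and -19.97 points over animals, with -20.6 and -19.3 points in the number series. At the latter, -19.00 points, animals 13 to 24 differed more than animals 1 to 12, by -27.3 against -10.48 points. Less stable were chr7:167027234-167027272 at -19.9 points, called in 17 of 24 fits with an animal left out, and chr16:1030062-1030247 at -19.1 points, called in 14. The former was lost without C 1, C 5, T 14, T 16, WSD 19, WSD 22 or T+WSD 12. The latter was lost without C 1, C 2, T 13, T 16, T 17, WSD 20, WSD 21, T+WSD 8, T+WSD 9 or T+WSD 10.

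**Figure D3:**
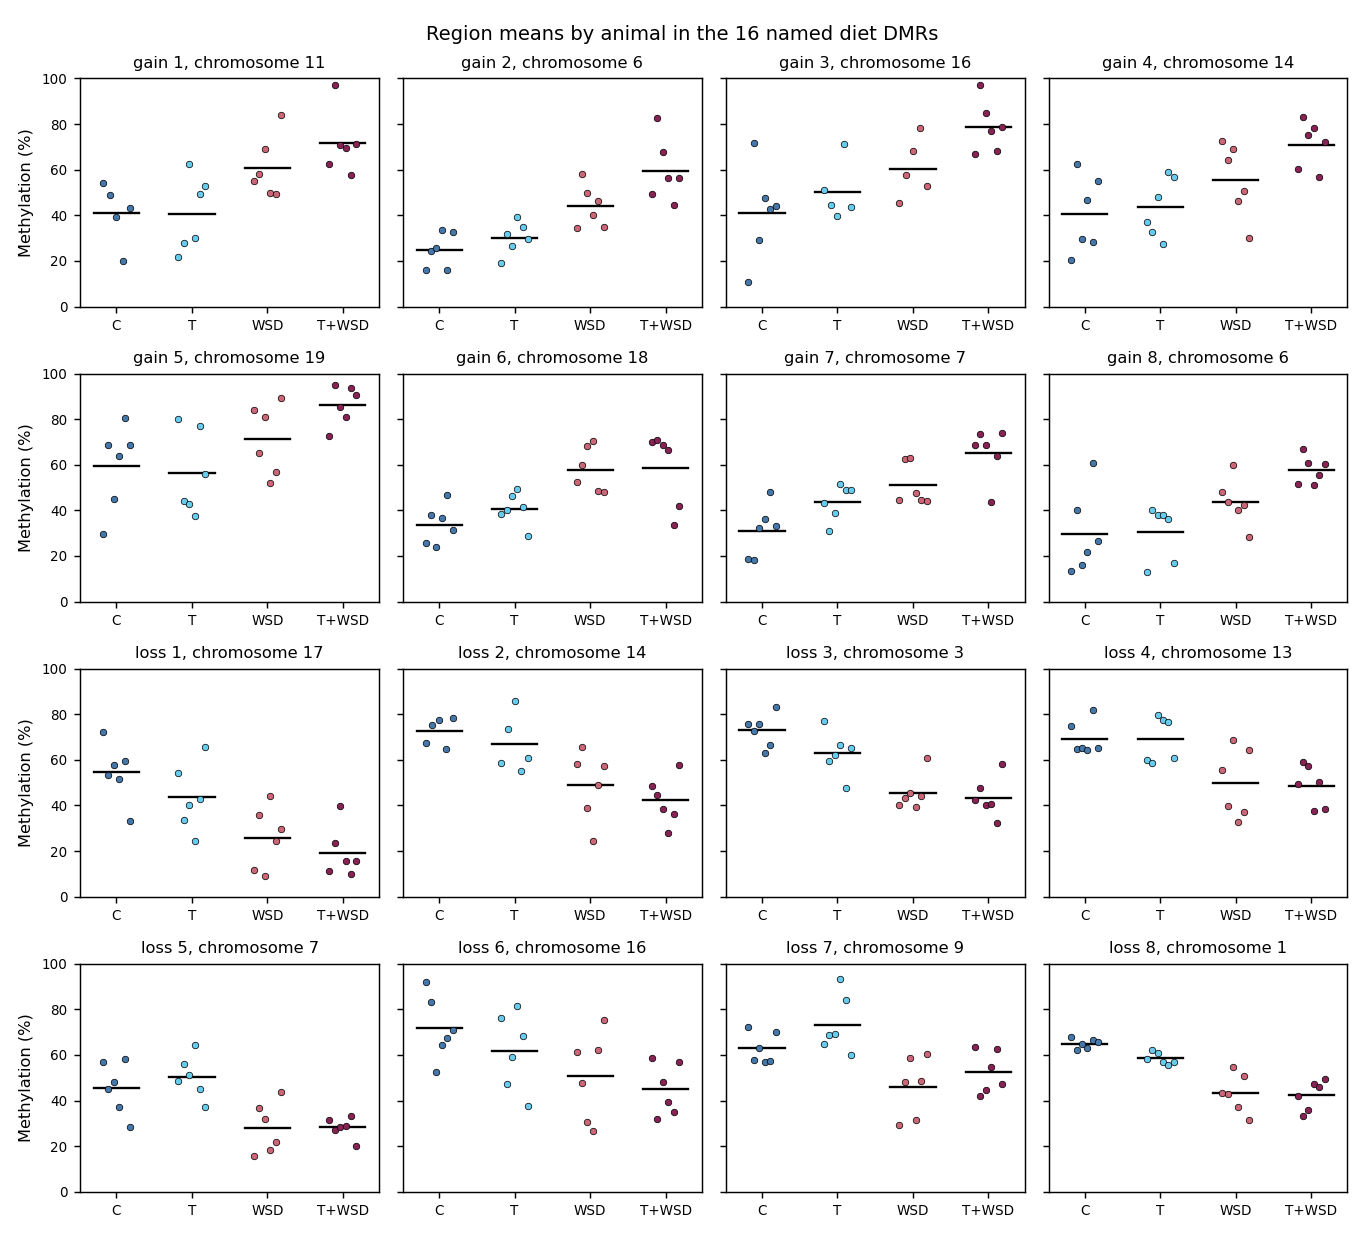
Region mean (percent methylation) of each animal in the 8 named gains and 8 named losses, by group, with the group mean (line). Only in loss 8, on chromosome 1, do the chow animals (55.6% to 68.1%) and the WSD-fed animals (31.3% to 54.9%) not overlap.

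The diet difference had the same sign under cholesterol and under testosterone in 369 of 371 DMRs, exceeded 5 points under both in 352 and exceeded 10 points under both in 208. This follows in part from calling regions on the average of both implants. The median size was 12.8 points under cholesterol and 13.7 points under testosterone. For gains it was 11.9 and 15.3 points, and for losses 13.2 and 12.5 points. By number series, the sign was the same in 364 DMRs. The median size was 18.5 points among animals 1 to 12, where T+WSD was compared with C, and 8.20 points among animals 13 to 24, where WSD was compared with T. Of the 16 named regions, 14 had the larger difference among animals 1 to 12. Along with diet, the implant also differs within each number series, in opposite directions, so the gap between the series is by construction 2 times the implant difference, testosterone minus cholesterol over both diets. Counted in the direction of the diet effect, the implant difference had a median of 5.43 points over the 371 DMRs. It is balanced over the number series, and only a diet effect that itself changed with the series could not be told apart from it.

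**Figure D4:**
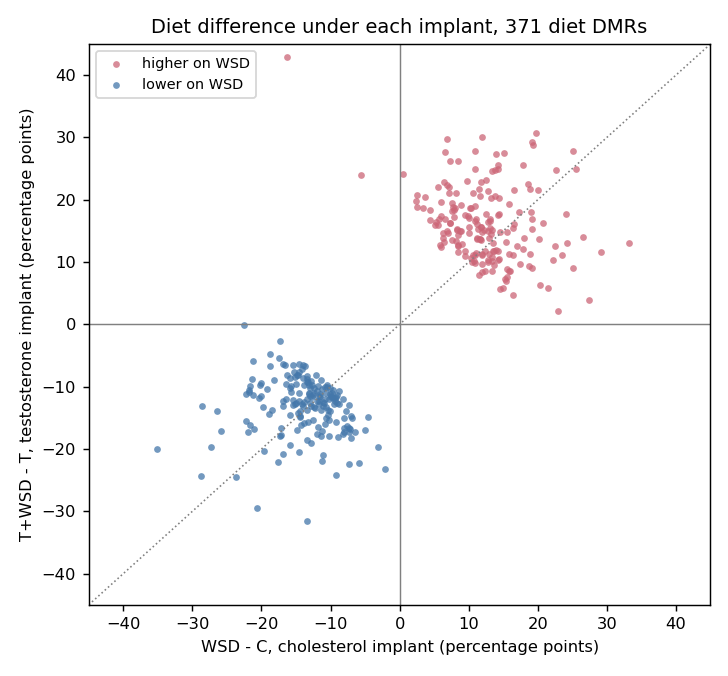
Diet difference of the 371 diet DMRs in percentage points under cholesterol (horizontal axis, WSD minus C) and under testosterone (vertical axis, T+WSD minus T); the dotted line marks equal differences. All but 2 DMRs lie in the quadrants of equal sign. Both exceptions lie in the upper left quadrant, and the higher of them is the region of chromosome 19 that was higher in T+WSD.

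The 2 exceptions were gains. At chr19:45316411-45316481 diet had opposite signs under the implants. Its 7 CpGs averaged 54.3% ± 7.44 in T+WSD and 29.3% ± 6.52 in C, but 13.1% ± 4.07 in WSD and 11.4% ± 3.39 in T (SD, n = 6 each). C animals ran from 22.001% to 39.1%, WSD animals from 6.49% to 17.7%, T animals from 8.16% to 17.5% and T+WSD animals from 45.5% to 67.6%. Hence T and WSD overlapped, while C and T+WSD overlapped with no other group. The diet difference was -16.3 points under cholesterol and 42.9 points under testosterone, and the interaction passed the test (smallest adjusted p of its CpGs 4.97e-09, limma). It was the only diet DMR that held a CpG with an adjusted interaction p under 0.05. Its average of 13.3 points therefore describes neither implant. The other exception, chr8:142738687-142738940, was -5.64 points under cholesterol and 24.02 points under testosterone, with a smallest adjusted interaction p of 0.218 (limma).

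Over all CpGs, the interaction gave 146 DMCs, 0.0174% of CpGs, and 18 tiles of 1 kb, 0.0178% of tiles. Since it is also the contrast of the number series, these counts cannot be assigned to the implant.

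Some diet DMRs covered many CpGs. These are named after their values were seen. The DMR with most CpGs was chr11:52716327-52717070, with 48 CpGs and a diet effect of -13.5 points (Sidak-adjusted p = 1.02e-07). Chow animals had 17.3% to 63.2% with a median of 28.1%, and WSD-fed animals had 10.45% to 34.6% with a median of 18.4%. Its highest value was that of C 1. The effect was -18.1 points under cholesterol and -8.85 points under testosterone.

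A pair of gains on chromosome 18 held 79 CpGs within 7519 bp. The larger, chr18:10627476-10628066, with 45 CpGs, gained 13.5 points (Sidak-adjusted p = 8.02e-07). Its chow animals had 22.4% to 50.1% with a median of 28.5%, and its WSD-fed animals had 32.0% to 76.2% with a median of 38.1%. At chr6:90545813-90546506, 41 CpGs gained 11.4 points over CpGs and 10.55 points over animals (Sidak-adjusted p = 5.86e-09), the latter by 10.4 points under cholesterol and 10.7 points under testosterone. The smallest Sidak p of all diet DMRs, 1.42e-12, was that of chr13:3156910-3157284, where 12 CpGs had 50.6% ± 9.38 on chow and 69.7% ± 10.6 on WSD (SD, n = 12 each). In 9 places 2 diet DMRs lay within 10000 bp of each other, and in each of the 9 both had the same direction.

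Diet DMRs were found on every autosome. Per 10000 measured CpGs there were between 2.46, on chromosome 6, and 6.85, on chromosome 13. Chromosome X had 1 DMR among 26995 CpGs, or 0.370 per 10000. Gains outnumbered losses by 8 or more on chromosomes 16 (22 against 10), 19 (21 against 13) and 20 (16 against 6), and losses outnumbered gains by 8 or more on chromosomes 10 (14 against 6), 12 (11 against 3), 13 (14 against 5) and 15 (13 against 4). These splits were not tested. The outer 2 megabases of the chromosomes held 14.4% of the diet DMRs on assembled chromosomes and 13.7% of the CpGs there.

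A test of 1 kb tiles with at least 3 CpGs, which uses no spatial model, gave 13 diet tiles out of 100864, 0.0129% of tiles, with 6 gains and 7 losses. An unadjusted p under 0.05 was found for 9503 tiles, 9.42%, with 3856 higher and 5647 lower on WSD. Of the 13 tiles, 11 overlapped a diet DMR, and in 12 all CpGs differed in the same direction. None of the 13 passed the interaction test (smallest adjusted p 0.844, limma), although 3 had an unadjusted interaction p under 0.05. The 4 losses and 4 gains with the smallest p are given next, apart from those at the named regions of chromosomes 1, 3 and 6, whose tiles had adjusted p-values of 0.00362, 0.0175 and 0.0293 (limma).

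At chr5:7781001-7782000, 8 CpGs gained 17.5 points (limma adjusted p = 0.0293). Chow animals had 32.8% to 57.0% with a median of 45.9%, and WSD-fed animals had 52.6% to 81.0% with a median of 61.1%. A CpG in this tile, position 7781266, was 33.2 points higher on WSD without overlap of the diets, but did not pass adjustment (limma adjusted p = 0.0837). At chr16:87001-88000, close to the chromosome's start, 9 CpGs gained 14.4 points (limma adjusted p = 0.0362). Chow animals had 16.003% to 29.0% with a median of 22.99%, and WSD-fed animals had 14.8% to 47.1% with a median of 38.7%. At least 1 WSD-fed animal was thus below all chow animals in this tile.

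The gain at chr2:122266001-122267000 was 17.7 points (limma adjusted p = 0.0368), with 17.2 points under cholesterol and 18.1 points under testosterone. By number series it was uneven, 28.8 points among animals 1 to 12 and 6.49 points among animals 13 to 24. This gap comes by construction from the implant difference, 11.2 points in this tile (limma, unadjusted p = 9.79e-04). No tile passed the implant test after adjustment. Of the losses, chr12:100350001-100351000 had a diet effect of -13.5 points (limma adjusted p = 0.0293), which was -13.3 and -13.7 points under the implants but -21.3 and -5.75 points in the number series. Its chow animals had 29.9% to 54.5% and its WSD-fed animals 19.1% to 39.9%. The implant difference in this tile was -7.78 points (limma, unadjusted p = 0.00134). The loss at chr5:6621001-6622000 was -11.6 points (limma adjusted p = 0.0293), from a median of 75.9% on chow to 62.7% on WSD. It was -6.33 points under cholesterol and -16.8 points under testosterone (limma interaction adjusted p = 0.844), and -15.4 and -7.75 points in the number series.

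The tile count was the least stable number and moved by more than 1.5 times without 18 of the 24 animals. It was 1 without C 1, C 3, WSD 20 or WSD 22 and 42 without WSD 24, and it was 17 without T 16. The split by direction moved too. There were 0 gains and 4 losses without T 14, but 12 gains and 8 losses without C 2. With 2 kb tiles there were 1 gain and 5 losses, and with CpGs at 5 to 95% only there were 10 of each. The values of the diets did not overlap in 3 tiles, 0.00297% of tiles, all lower on WSD. Besides the tile of chromosome 1 these were chr11:132275001-132276000, at 85.1% to 93.5% on chow and 74.997% to 84.5% on WSD, and chr16:16746001-16747000, at 59.0% to 71.8% on chow and 52.7% to 58.0% on WSD. Both passed the test (limma adjusted p = 0.0293 and 0.0368) with differences under 10 points, -7.52 and -7.88.

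The differences WSD minus C and T+WSD minus T have no animal in common, so regions called in either comparison were read in the other. Both comparisons came from the same fit to all groups, however. The groups in which regions were read had thus entered the residual variance behind the calls, and they were not fully held out. The number series enters the comparisons with opposite signs. Under cholesterol diet gave 176 DMRs, covering 0.158% of CpGs, with 68 gains and 108 losses. Under testosterone it gave 231, covering 0.210% of CpGs, with 158 gains and 73 losses. Of the 176, 133 (75.6%) had the same direction under testosterone. Of the 231, 185 (80.1%) had the same direction under cholesterol. Over all tiles 53.9% had the same direction under both implants. Among tiles with an unadjusted p under 0.001, it was 63.3% of the 311 selected under cholesterol (0.308% of tiles) and 67.3% of the 361 selected under testosterone (0.358%). The differences were much smaller where they were read than where they were called. The median DMR called under cholesterol differed by 16.96 points there and by 5.36 points in the same direction under testosterone. For DMRs called under testosterone the medians were 17.7 and 4.85 points.

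As a value per animal, the mean over the gained minus the mean over the lost regions was taken. For regions called under cholesterol, T animals lay between -3.88 and 3.95 points and T+WSD animals between 1.001 and 16.9 points. For regions called under testosterone, C animals lay between -42.5 and -19.3 points and WSD animals between -28.9 and -8.64 points. In both readings the WSD-fed animals were higher on average and the diets overlapped.

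**Figure D5:**
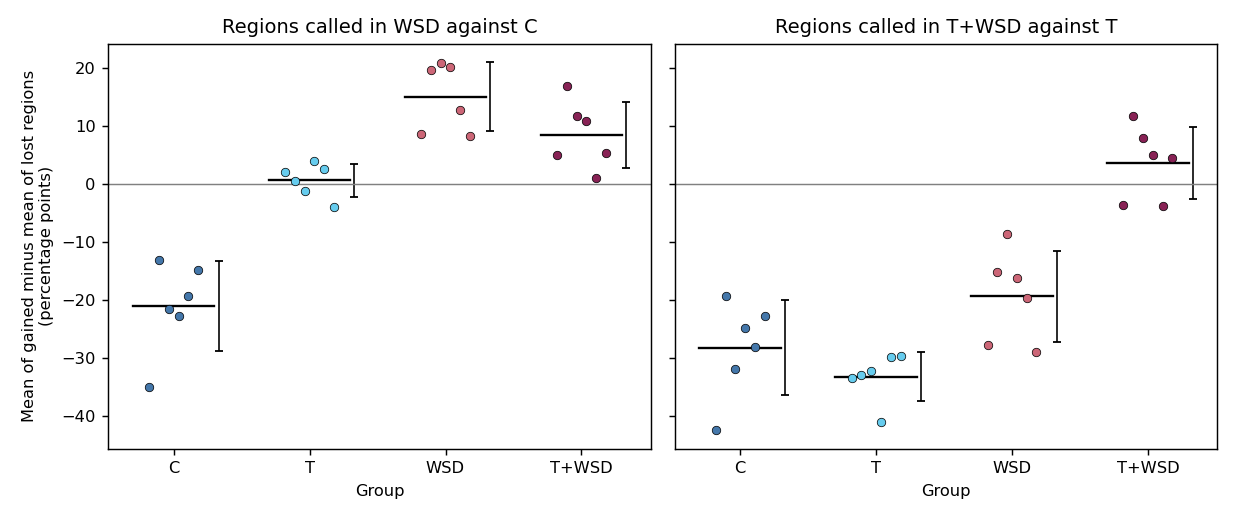
Mean methylation over gained minus lost regions (percentage points) of each animal, for DMRs called in WSD against C (left) and in T+WSD against T (right), by group, with the group mean (line) and SD (bar, n = 6 animals). The groups outside the comparison that called the regions are T (-3.88 to 3.95) and T+WSD (1.001 to 16.9) on the left, and C (-42.5 to -19.3) and WSD (-28.9 to -8.64) on the right. They had entered the residual variance of the shared fit.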

How the data were processed

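RRBS libraries of 24 animals were analysed, 6 in each of 4 groups taken from the sample labels. The authors trimmed reads with Trim Galore (v0.4.2), checked them with FastQC (v0.11.5) and aligned them to rheMac8 with Bismark (v0.16.1). The values the authors deposited are the percent of methylated reads per CpG and animal, for CpGs covered 10 times or more in no fewer than 4 animals of each group. Read counts per CpG are not in this table, so depth is unknown and missing values stayed missing. Low coverage adds counting error to the spread between animals.

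Limma (v3.58.1, R 4.3.3) was fitted to arcsine square root rates of all 4 groups, and the diet contrast averaged WSD minus C and T+WSD minus T. P-values were adjusted by Benjamini-Hochberg over all 841143 CpGs or 100864 tiles. The comb-p procedure was written out again in Python (3.11.15, numba 0.67.0): p-values were combined with their autocorrelation in steps of 50 bp up to 300 bp, CpGs whose combined p stayed under 0.05 after adjustment seeded regions, gaps of up to 300 bp were bridged, and a DMR had 2 or more CpGs, Sidak p under 0.1 and over 10 points of difference. The number of tests in the Sidak correction was the number of CpG positions divided by the region length. The tool itself was not run, and the DMR count depends on how the procedure is written out. The CpG fit and the DMR procedure were tested on simulated data in which each CpG of each animal was drawn independently. Neighbouring CpGs of an animal did not deviate together there, so the simulation cannot show how DMR calls behave where they do. Values per animal were compared with exact permutation tests that permuted diet within implant (smallest possible p 2.34e-06). P-values of CpGs, tiles and permutation tests measure the spread between these animals. The Sidak p of a DMR does not do so alone, because it combines CpGs measured in the same animals. A deviation that an animal shares across a region is allowed for only through the average autocorrelation of p-values. For the same 4 CpGs at chr6:76908592-76908649, the combined p was 4.44e-13 before the Sidak correction, and the tile had an unadjusted p of 2.31e-06 (limma).

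Named regions were the 8 largest gains and losses among 320 diet DMRs with at least 3 CpGs, values in at least 22 animals, no CpG with stepwise values (range of at least 40 points and every animal at or under 15%, between 35% and 65% or at or above 85%) and over 5 points in the same direction under both implants. These regions were ranked by the mean difference over animals. All DMCs, and the 4 gained and 4 lost tiles with the smallest p, were also named. The comparison and the rules were chosen with earlier results of these data known. Alternatives included other transformations, models, filters, thresholds, tile sizes and each animal left out. Lists of genes and cell type markers that had been drawn up were not used, because no annotation of rheMac8 was used here.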

Additional observations from a re-analysis of the deposited data

Results flagged for a closer look

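In 8 of 132 groups of 6 or fewer animals that were examined, 1 animal lay far from the others of its group. Chance gives about 1 in 20 such groups, or 6.6 of 132. For the mean of CpGs under 10%, C 1 had 1.97% with the next C animal at 1.65%, and T 13 had 2.25% with the next T animal at 1.68%. At chr11:25441691-25441765, T+WSD 8 had 97.0% and the next animal 71.1%. At chr7:79488777-79488830, T+WSD 10 had 43.8% and the next animal 63.7%. At chr3:57838568-57838620, and in the 1 kb tile that holds the same CpGs, WSD 24 had 61.0% and the next animal 45.4%, toward the chow animals. At the DMC of chromosome 13, T+WSD 11 had 81.0% and the next animal 66.7%. In the tile chr2:122266001-122267000, T+WSD 12 had 67.1% and the next animal 54.7%.

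The diet difference at chr19:45316411-45316481 differed between the implants, being 59.2 points higher under testosterone than under cholesterol, with an adjusted interaction p of 4.97e-09 (limma). The same contrast separates animals 1 to 12 from animals 13 to 24, so the implant and the number series cannot be told apart.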

How the results depend on the processing

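The mean methylation difference was negative and short of the threshold under each alternative setting tried, from -0.232 to -0.125 points, and from -0.232 to -0.0336 with each animal left out. With classes set by the chow animals alone, the effects at 70 to 90% (-0.880 points, adjusted p = 0.0287) and above 90% (-0.607 points, adjusted p = 9.37e-05) passed the exact permutation test. Such classes are chosen on the chow values that enter the difference. The pseudo-F was 0.978 over the 10000 most variable CpGs and did not pass, and 1.16 to 1.21 without C 1 or T 16. The DMC count of 3 became 0 with CpGs at 5 to 95% only (39394 with an unadjusted p under 0.05) and 8 at an adjusted p under 0.1, and ran from 0 to 13 with each animal left out. The DMR count of 371 became 235 with CpGs at 5 to 95%, 26 above 20 points and 184 where the Sidak correction used the bases spanned by measured CpGs, the last chosen after seeing the data, and ran from 269 to 451 with each animal left out. Other settings moved it less than 1.5 times (318 to 530), among them Cholesky decorrelation with 362, also added later. Of the 16 named regions, 7 were lost with the Sidak correction over spanned bases, 5 with complete CpGs, 2 with gaps of up to 100 bp and 1 each with logit rates and a Sidak p under 0.05. The 4 named losses under 20 points also fall out above 20 points by construction. The tile count of 13 became 2 with logit rates, 8 in an additive model, 3 with diet alone, 36 with complete CpGs, 20 at 5 to 95%, 2 above 20 points, 63 at an adjusted p under 0.1, 6 with 2 kb tiles and 6 with the mean of arcsine rates, the last added later, and ran from 1 to 42 with each animal left out. The cause of these shifts was not tested. Averaging both strands of a CpG (3 DMCs, 370 DMRs), also added later, made little difference.

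No paired analysis was possible because the animal numbers of the groups do not repeat. The alternative for promoters was not run, since no annotation of rheMac8 was used here. The unknown depth limits what single CpGs can show, and a higher coverage minimum could not be tried.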
